A study of Mus musculus with 4 samples.

Results

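The enzymes that write and remove trimethylation of histone H3 lysine 27 (H3K27me3) were described here through the chromatin at their own genes. They are 10 of the 21938 protein-coding genes that GENCODE vM21 places on chromosomes 1 to 19, X and Y of the mouse (GRCm38). The 10 genes were taken by name and not by a measured value. Ezh1 and Ezh2 encode the alternative methyltransferases of Polycomb repressive complex 2 (PRC2). Eed and Suz12 are its core partners, with Rbbp4 as the histone binding subunit. Jarid2, Mtf2 and Aebp2 are accessory subunits that help to bring the complex to chromatin. Kdm6a and Kdm6b are the demethylases that erase the mark.

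PRC2 places H3K27me3 on promoters rich in CpG dinucleotides, where the mark is tied to repression and is bound by the PRC1 complex. Ezh2 is the methyltransferase of dividing cells, whereas Ezh1 is the usual form in resting tissue such as the adult liver. H2A.Z is a histone variant that sits in the nucleosomes beside active or poised transcription start sites (TSSs). ATACseq cuts accessible DNA with the Tn5 transposase, so that open promoters appear as peaks.

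The WT liver came from a Uhrf1 fl/fl mouse without Cre, and the Uhrf1hepKO liver from a mouse that was Uhrf1 fl/fl;Alb:Cre. Both were male mice on a C57Bl/6 background, 8 to 12 weeks old and on a normal diet, and both carried the floxed allele. The Alb promoter drives Cre in hepatocytes, so Uhrf1 was targeted in those cells. Whether the other cells of the Uhrf1hepKO liver kept Uhrf1 was not measured here. The same 2 livers were used for ATACseq and for H2A.Z ChIPseq, which gave 4 libraries with 1 library per condition. There is therefore no replicate error and no test between genotypes, and each value compares these libraries only. Nuclei came from whole liver, so more cells with a signal and more signal per cell cannot be told apart.

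The 4 peak lists held between 10582 and 51450 peaks on these chromosomes. Uhrf1 had a peak near its TSS in every list, which does not measure the deletion. Of the 7 hepatocyte markers counted, 3 had a peak in any list (Alb, Apoa2 and Fgb), and Hnf4a, Apoa1, Apob and Cps1 had none. Of the 9 markers of other liver cells, 1 had a peak (Sox9). These markers therefore do not check the label of the tissue.

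Within the 10 genes or 5 kb on either side of their TSSs there were 59 peaks, 17 of ATACseq and 42 of H2A.Z. Of these, 52 lay within 5 kb of the TSS, and the other 7 lay inside Jarid2 and Aebp2. Every gene had at least 1 peak. The sequences that the results turn on are printed 5′ to 3′ on the strand of the gene, from the GRCm38 assembly of RefSeq. The first 3 lie before or within promoters that held an ATACseq peak in both livers, and the next 3 lie before promoters that held none. The last 2 are the ATACseq peak with the highest fold of all and the only WT ATACseq peak near Kdm6b. Capitals mark the letters of CCAAT (bound by NF-Y), GGGCGG (Sp1), CCGGAAG (ETS factors), TTTNNCGC (E2F), GCGCATGC (NRF1) or AAGATGGC (YY1) on either strand, and none of these contains another.
Ezh2, 125 bases of intron inside the WT ATACseq peak, chr6:47595059-47595183, minus strand: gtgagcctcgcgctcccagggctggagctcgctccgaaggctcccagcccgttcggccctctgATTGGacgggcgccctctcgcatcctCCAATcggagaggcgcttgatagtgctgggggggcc
Eed, 243 bases before the gene, chr7:89980984-89981226, minus strand: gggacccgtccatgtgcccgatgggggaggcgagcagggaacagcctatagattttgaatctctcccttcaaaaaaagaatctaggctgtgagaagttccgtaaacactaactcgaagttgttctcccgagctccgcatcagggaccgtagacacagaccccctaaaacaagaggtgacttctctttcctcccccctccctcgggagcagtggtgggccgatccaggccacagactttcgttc
Kdm6a, 250 bases before the gene, chrX:18162325-18162574, plus strand: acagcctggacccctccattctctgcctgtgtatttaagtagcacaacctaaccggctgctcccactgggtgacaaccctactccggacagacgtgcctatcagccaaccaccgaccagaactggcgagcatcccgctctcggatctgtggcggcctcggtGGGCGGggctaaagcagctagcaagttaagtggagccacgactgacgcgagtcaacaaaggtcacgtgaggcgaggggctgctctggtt
Ezh1, 250 bases before the gene, chr11:101226464-101226713, minus strand: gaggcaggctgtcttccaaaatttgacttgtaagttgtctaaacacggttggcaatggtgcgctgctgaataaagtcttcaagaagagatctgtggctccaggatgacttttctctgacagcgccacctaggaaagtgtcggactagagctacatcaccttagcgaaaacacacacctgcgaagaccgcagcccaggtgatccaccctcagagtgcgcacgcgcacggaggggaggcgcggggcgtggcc
Suz12, 250 bases before the gene, chr11:79992856-79993105, plus strand: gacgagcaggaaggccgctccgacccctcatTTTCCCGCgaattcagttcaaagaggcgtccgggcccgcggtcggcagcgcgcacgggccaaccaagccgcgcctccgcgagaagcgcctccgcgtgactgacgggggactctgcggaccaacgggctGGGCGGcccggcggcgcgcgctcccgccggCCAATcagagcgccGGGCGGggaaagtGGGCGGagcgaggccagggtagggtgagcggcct
Mtf2, 250 bases before the gene, chr5:108065424-108065673, plus strand: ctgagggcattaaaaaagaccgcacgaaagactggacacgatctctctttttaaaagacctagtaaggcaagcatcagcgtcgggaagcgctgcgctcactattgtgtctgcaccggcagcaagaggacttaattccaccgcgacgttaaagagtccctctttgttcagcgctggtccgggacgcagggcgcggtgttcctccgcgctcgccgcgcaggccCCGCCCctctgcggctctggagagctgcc
Jarid2, the central 300 bases of an intronic WT ATACseq peak, chr13:44869648-44869947, plus strand: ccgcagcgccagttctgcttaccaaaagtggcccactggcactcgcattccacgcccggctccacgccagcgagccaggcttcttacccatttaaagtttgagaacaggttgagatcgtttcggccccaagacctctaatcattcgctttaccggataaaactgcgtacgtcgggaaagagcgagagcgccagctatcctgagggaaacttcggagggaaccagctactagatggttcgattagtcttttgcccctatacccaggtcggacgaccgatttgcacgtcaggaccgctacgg
Kdm6b, the upstream WT ATACseq peak, chr11:69417679-69417845, minus strand: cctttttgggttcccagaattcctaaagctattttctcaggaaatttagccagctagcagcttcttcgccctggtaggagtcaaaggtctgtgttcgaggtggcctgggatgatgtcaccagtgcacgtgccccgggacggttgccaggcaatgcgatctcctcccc

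CpGs were present in both groups of promoters. The printed stretch before Suz12 had 37 CpGs and 73.6% G and C, although no ATACseq peak lay there. The stretches before Ezh1 and Mtf2 had 14 and 23 CpGs, beside 11 before Eed and 15 before Kdm6a. The 250 bases before Rbbp4, not printed, had 30 CpGs and 67.6% G and C. Rbbp4 also held an ATACseq peak in both livers. The searched letters also fell on both sides of the split. Suz12 held 1 CCAAT, 3 GGGCGG and 1 TTTNNCGC, whereas Ezh1 and Eed held none of the letters in the printed bases. The RefSeq promoter window of Eed, which also covers bases inside the gene, did hold CCAAT, and that of Ezh1 held none. The bases before Rbbp4 held CCAAT and GGGCGG. RefSeq promoter windows, 250 bases before to 50 after a start, were found for 9 of the 10 genes, with 13 windows in all. Aebp2, Jarid2 and Mtf2 had more than 1 window. The 13 windows held between 2 (Mtf2) and 41 (Suz12) CpGs, and the median over the windows of all genes was 7.0. CCAAT was in 8 of the 13 windows, beside 37.4% of the 32851 windows of all genes. GGGCGG was also in 8 of the 13, beside 35.7%, and TTTNNCGC was in 2 (Ezh2 and Suz12), beside 5.17%. CCGGAAG, GCGCATGC and AAGATGGC were in none of the 13, beside 8.86%, 2.71% and 2.75%. These are matches of letters and not measured sites, and the part of CpG number in the shares was not tested.

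At the TSSs of the 10 genes, peaks in the window of 5 kb on either side were found at a larger share than among protein-coding genes at large, a comparison made without a test. In WT, 7 of the 10 genes had open chromatin as called by ATACseq inside this window, beside 30.2% of all protein-coding genes. The count was again 7 in Uhrf1hepKO, beside 27.9%. They were the same 7 genes, Ezh2, Eed, Rbbp4, Jarid2, Aebp2, Kdm6a and Kdm6b, and 23.0% of all genes had such a peak in both genotypes. By the GENCODE TSS, none of the 10 had such a peak in 1 genotype only, beside 12.0% of all genes. These counts ask for any peak in the window: the peaks of the 2 livers overlapped at 6 of the 7 genes, and those at Kdm6b lay at different places. Within 500 bp of the TSS the count was 4 in each genotype, beside 25.3% of all genes in WT and 22.9% in Uhrf1hepKO. Within 5 kb of curated RefSeq starts, the counts were 7 in WT, 6 in Uhrf1hepKO and 6 in both. Within 5 kb of the GENCODE TSS and with a q-value of at most 0.01, they were 6, 5 and 5. The shares of all genes by RefSeq starts or at this q-value are not given here.

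H2A.Z peaks were found at more of the genes than ATACseq peaks were, as was the case among all protein-coding genes. The H2A.Z lists were also longer, with 51450 peaks in WT and 47135 in Uhrf1hepKO, beside 10582 and 10764 for ATACseq. The largest q-value was 0.05 in the WT H2A.Z list and 0.0997 in the WT ATACseq list. In WT, 9 of the 10 had H2A.Z in the same window, beside 52.8% of all protein-coding genes. In Uhrf1hepKO all 10 had one, beside 51.0%. The 9 genes of the WT list were also in the Uhrf1hepKO list, and 48.8% of all genes had a peak in both. Kdm6b was the 1 gene of the 10 with a peak in 1 genotype only, beside 6.14% of all genes. The share of genes with a peak differed with the number of CpGs. The 10 genes had a median of 78.5 CpGs within 500 bp of the TSS, beside 41.0 for all genes. In the tenth of all genes nearest to Ezh1 in number of CpGs, 53.6% had a WT ATACseq peak and 79.3% a WT H2A.Z peak. In the tenth nearest to Kdm6b these shares were 9.07% and 27.1%, and in the tenth with the most CpGs, which holds Ezh2, Suz12 and Rbbp4, they were 46.7% and 73.9%. The part of CpG number in the counts was not tested.

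**Figure D1:**
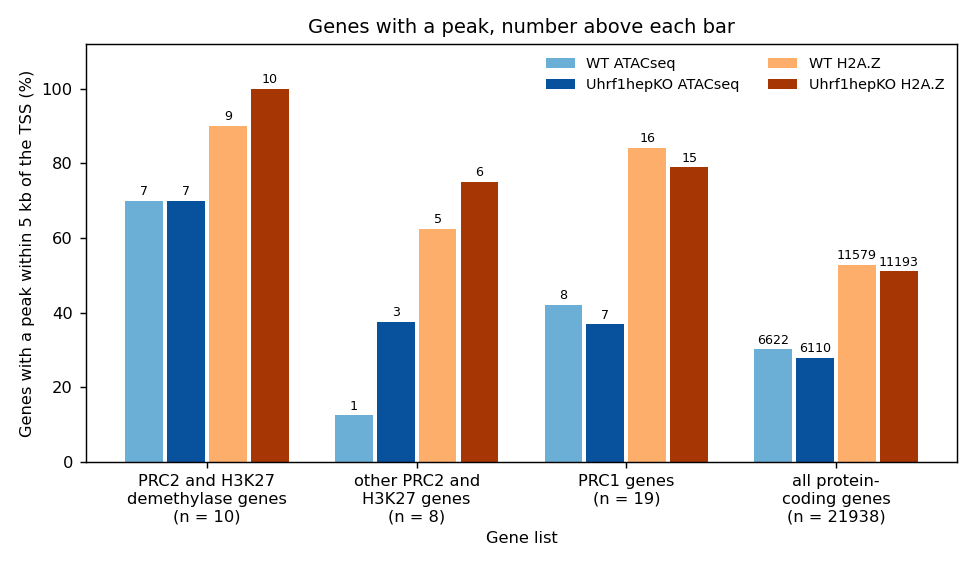
Percent of genes (y axis) that have a peak at most 5 kb from the TSS in each of the 4 lists, for the 10 genes, 8 other PRC2 and H3K27 genes, 19 PRC1 genes and all 21938 protein-coding genes; numbers above the bars are genes. In ATACseq 7 of the 10 genes had a peak in both genotypes. Of the 8 other PRC2 and H3K27 genes, 1 had one in WT and 3 in Uhrf1hepKO, beside 30.2% and 27.9% of all genes.

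The other genes of the pathway did not all have peaks. Of 8 other PRC2 and H3K27 genes, 1 had an ATACseq peak in WT and 3 in Uhrf1hepKO, and 5 and 6 had an H2A.Z peak. These are 12.5% and 37.5% for ATACseq, beside 30.2% and 27.9% of all protein-coding genes. For H2A.Z they are 62.5% and 75.0%, beside 52.8% and 51.0%. Epop, a PRC2 accessory subunit, and Ezhip (AU022751 in GENCODE), an inhibitor of PRC2, had no peak in any list. The highest fold of this list in WT was 4.32 at Lcorl in ATACseq and 7.80 at both Phf1 and Lcor in H2A.Z. In Uhrf1hepKO it was 3.52 at Lcor in ATACseq and 8.13 at Lcorl in H2A.Z. Of 19 PRC1 genes, 8 and 7 had an ATACseq peak in WT and Uhrf1hepKO, and 16 and 15 an H2A.Z peak. Beside the same shares of all genes, these are 42.1% and 36.8% for ATACseq and 84.2% and 78.9% for H2A.Z. Rybp, Cbx6 and Cbx7 had none in any list. The highest ATACseq folds were 5.73 at Pcgf2 in WT and 6.14 at Phc2 in Uhrf1hepKO. The highest H2A.Z folds were 10.2 at Phc1 in WT and 12.5 at Rnf2 in Uhrf1hepKO.

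**Figure D2:**
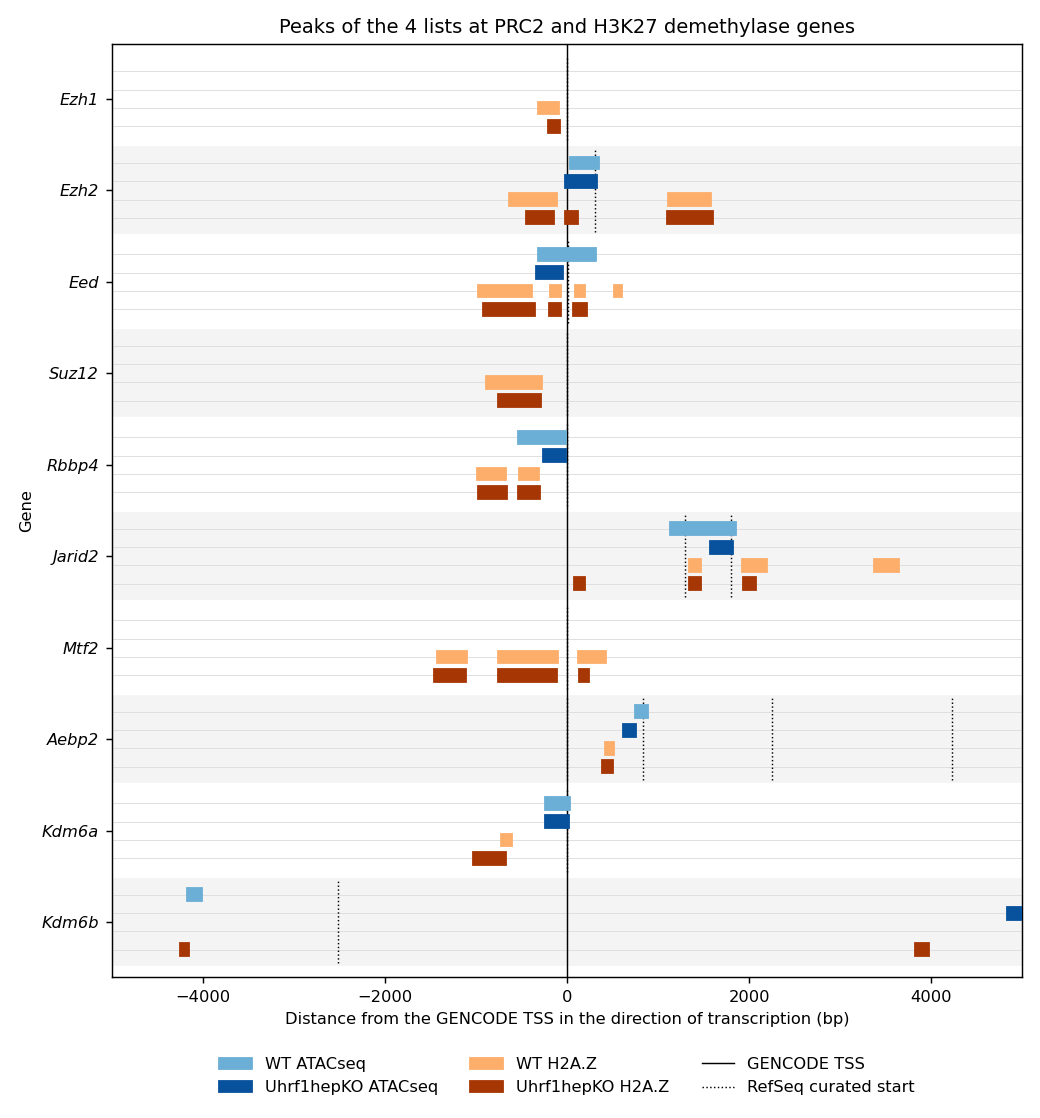
Peaks of the 4 lists (coloured bars) by distance in bp from the GENCODE TSS (x axis, negative is upstream) at each of the 10 genes; dotted lines are curated RefSeq starts. Ezh1, Suz12 and Mtf2 have H2A.Z bars only, and the ATACseq bars of Jarid2 and Aebp2 lie downstream of the GENCODE TSS, near later starts.

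The 2 methyltransferase genes differed in their called ATACseq peaks. Ezh1 (chr11:101191115-101226463, minus strand) had no ATACseq peak in either liver. It had 1 H2A.Z peak in each, upstream of the TSS, with the summit at 136 bp in WT and 117 bp in Uhrf1hepKO. A summit height is given here as the number of reads stacked on it, with an exact 95% Poisson interval that covers counting error only. At Ezh1 the summit held 21 reads in WT (13.0 to 32.1) and 26 in Uhrf1hepKO (17.0 to 38.1). The intervals overlap widely.

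Ezh2 (chr6:47530139-47595341, minus strand) had an ATACseq peak at its first exon and intron in both livers. The fold, the mean pileup of the peak over its local background, was 5.44 in WT and 5.65 in Uhrf1hepKO. Folds are not on 1 scale in the 2 lists, so the percentile of a peak within its own list is given beside them. That of Ezh2 was 80.6 in WT and 87.9 in Uhrf1hepKO. H2A.Z lay on both sides of the open stretch. The upstream summit held 26 reads in WT and 25 in Uhrf1hepKO, and the one in the first intron held 21 and 24. The Uhrf1hepKO list had a further peak of 20 reads (12.2 to 30.9) with its summit 36 bp downstream of the TSS, overlapping the open stretch, where the WT list had none. The lowest summits in the 2 lists held 11 reads in WT and 12 in Uhrf1hepKO, so a site without a peak may still have reads.

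The core partners were split in the same way by called ATACseq peaks, and a place without one may still have reads. In the tenth of genes with the most CpGs, which holds Suz12, 46.7% had a WT ATACseq peak. At Eed (chr7:89954654-89980983, minus strand) the WT ATACseq peak was 629 bp wide and covered the TSS, with a fold of 4.79. The Uhrf1hepKO peak was 296 bp wide, with a fold of 4.76, and lay wholly upstream. Their percentiles were 65.9 and 72.5. The WT list had 4 H2A.Z summits here, with 32, 35, 15 and 19 reads from upstream to downstream. The Uhrf1hepKO list had 3 of the same places, with 36, 44 and 18 reads, and no peak at the fourth. The 35 and 44 reads (24.4 to 48.7 and 32.0 to 59.1) were at a summit inside the open stretch in both livers. E230029C05Rik, a noncoding transcript on the other strand, starts 260 bp inside Eed, and these peaks cannot be assigned to either gene alone.

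Suz12 (chr11:79993106-80034123, plus strand) had 110 CpGs within 500 bp of the TSS, the most of the 10 genes, and no ATACseq peak. A wide H2A.Z peak, of 612 bp in WT and 464 bp in Uhrf1hepKO, lay upstream of it. Its summit held 30 reads in WT (20.2 to 42.8) and 29 in Uhrf1hepKO (19.4 to 41.6). Suz12 and the upstream peak of Ezh2 were the 2 places, among the 18 paired H2A.Z peaks of the 10 genes by the GENCODE TSS, where Uhrf1hepKO had fewer reads than WT, by 1 read each.

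Rbbp4 (chr4:129307100-129335370, minus strand) starts 325 bp from Zbtb8os, a protein-coding gene on the other strand, and the peaks fell in or beyond the stretch between them. The ATACseq fold was 4.49 in WT and 4.39 in Uhrf1hepKO, at percentiles 56.5 and 62.5. The peak was 526 bp wide in WT and 246 bp in Uhrf1hepKO. H2A.Z summits held 29 and 32 reads at the nearer place and 25 and 27 at the farther one. These summits lay inside Zbtb8os, and the peaks cannot be assigned to either gene alone. There was no H2A.Z peak within 1 kb of the open stretch on the Rbbp4 side.

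Of the accessory subunits, Mtf2 (chr5:108065674-108109004, plus strand) had the highest H2A.Z peak of the 10 genes and no ATACseq peak. The peak spanned 652 bp in WT and 647 bp in Uhrf1hepKO, upstream of the TSS. Its summit held 44 reads in WT (32.0 to 59.1) and 49 in Uhrf1hepKO (36.2 to 64.8), at percentiles 97.8 and 98.2 by fold. A second peak just downstream of the TSS held 23 and 29 reads. Another, over 1 kb upstream, held 18 reads in both livers, and 86.1% of the WT peak was repeat-masked sequence. The 3 genes without an ATACseq peak, Ezh1, Suz12 and Mtf2, thus all had H2A.Z upstream of the TSS in both livers.

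Jarid2 (chr13:44729474-44921643, plus strand) had no ATACseq peak at its GENCODE TSS. Its promoter peak lay 1494 bp downstream in WT and 1696 bp in Uhrf1hepKO, beside curated RefSeq starts at 1300 and 1797 bp. The folds, 3.66 and 3.48, were low in both lists, at percentiles 16.3 and 18.1. The WT peak was 729 bp wide and the Uhrf1hepKO peak 254 bp. H2A.Z at these later starts, mainly in exons, held 31 and 38 reads at the first place and 20 and 28 at the second. The WT list also had 13 reads 3446 bp downstream of the TSS, and the Uhrf1hepKO list 14 reads at 163 bp, each without a counterpart in the other list.

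**Figure D3:**
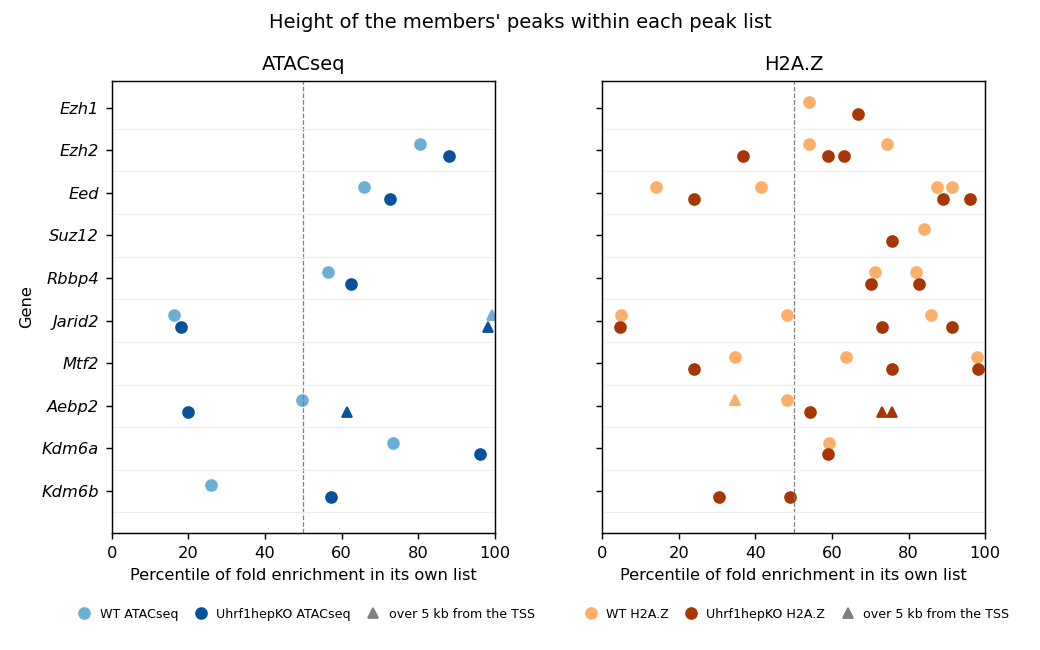
Percentile of fold enrichment of each peak within its own list (x axis, 50 is the median peak of the list) for the 10 genes, with ATACseq on the left and H2A.Z on the right; triangles are peaks over 5 kb from the TSS. The intronic ATACseq peak of Jarid2 lies at 99.1 in WT and 98.1 in Uhrf1hepKO, and Kdm6a moves from 73.4 to 96.2.

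The ATACseq peak with the highest fold of the 17 was not at a TSS. It lay in an intron of Jarid2, 140323 bp downstream of the TSS, and was 453 bp wide in WT and 449 bp in Uhrf1hepKO. Its fold was 10.3 in WT and 7.98 in Uhrf1hepKO, at percentiles 99.1 and 98.1. No H2A.Z peak lay within 1 kb of it in either liver. Its sequence, printed above, recurs in the genome. At least 50% of the peak was found at 90% identity or more at 16 other places, with an identity between 90.9% and 98.9%. Of these 16 places, 7 held an ATACseq peak in the WT list and 7 in the Uhrf1hepKO list, with a median fold of 7.91 and 6.95. None held an H2A.Z peak. The printed letters read as a stretch of 28S ribosomal RNA on the other strand, an identification from general knowledge, since the gene annotations used here name no ribosomal RNA at the Jarid2 site. How reads with several equally good placements were treated is not given in the sources used here.

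Aebp2 (chr6:140622663-140678472, plus strand) had no peak at the GENCODE TSS itself. Gm44013, a transcript that awaits experimental support, starts 240 bp upstream on the other strand. The ATACseq peaks of Aebp2 lay near a curated RefSeq start 839 bp downstream of the GENCODE TSS. The WT peak had a fold of 4.30 at percentile 49.6, and the Uhrf1hepKO peak a fold of 3.50 at percentile 19.8. They shared 9 bp, and 55.9% of the Uhrf1hepKO peak was repeat-masked, with 84 similar places in the genome. A fall of this size in percentile was seen at 9.14% of all ATACseq peaks that were paired between the lists. H2A.Z near the TSS held 20 and 23 reads.

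**Figure D4:**
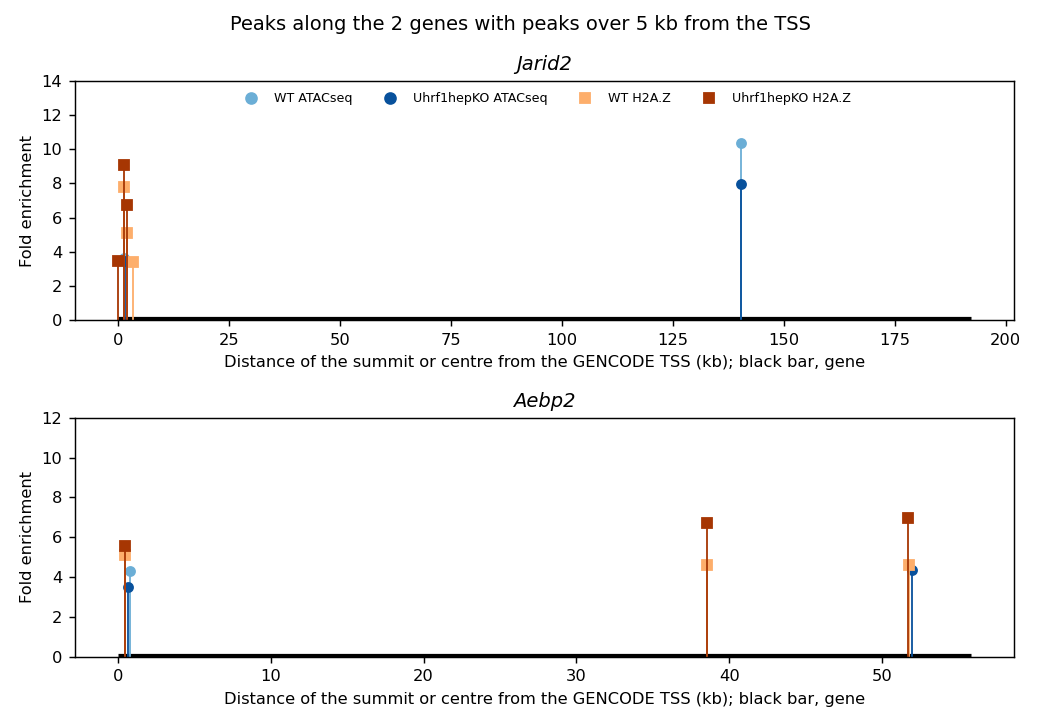
Fold enrichment (y axis) of every peak along Jarid2 (top) and Aebp2 (bottom), by distance in kb of the summit or centre from the GENCODE TSS (x axis); circles are ATACseq, squares H2A.Z, and the black bar is the gene. Jarid2 has 1 intronic place with ATACseq peaks of fold 10.3 and 7.98, and Aebp2 has 2 intronic places with H2A.Z.

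Farther inside Aebp2, 2 intronic places carried H2A.Z in both livers. At 38535 bp from the TSS the summit held 18 reads in WT (10.7 to 28.4) and 28 in Uhrf1hepKO (18.6 to 40.5). At 51750 bp it held 18 reads in WT and 29 in Uhrf1hepKO (19.4 to 41.6). The second place also had an ATACseq peak in Uhrf1hepKO, with its centre at 51956 bp and a fold of 4.35, and none in WT. Of the paired H2A.Z peaks of the 10 genes, this place had the largest ratio of reads between the livers, and it is singled out after the values were seen. A ratio at least as large was seen at 2.42% of all paired H2A.Z peaks. The intervals of WT and Uhrf1hepKO overlap at both places.

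The 2 demethylase genes differed from each other. Kdm6a (chrX:18162575-18279936, plus strand) is X-linked, and both mice were male. Its ATACseq peak covered the TSS in both livers, from the same base upstream, with a width of 278 bp in WT and 270 bp in Uhrf1hepKO. The fold was 5.07 in WT and 6.97 in Uhrf1hepKO, at percentiles 73.4 and 96.2. This was the largest rise in percentile among the 7 paired ATACseq peaks of the 10 genes, and it is singled out after its value was seen. A rise at least as large was seen at 13.1% of the 6447 paired ATACseq peaks of the whole lists. H2A.Z lay upstream of the open stretch, with 22 reads in WT (13.8 to 33.3) and 24 in Uhrf1hepKO (15.4 to 35.7), and not downstream of it.

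Kdm6b (chr11:69398508-69413675, minus strand) had 12 CpGs within 500 bp of its GENCODE TSS, the fewest of the 10 genes. None of its peaks was within 500 bp of that TSS, and none overlapped a peak of the same assay in the other liver. Across assays, the upstream WT ATACseq peak overlapped the upstream Uhrf1hepKO H2A.Z peak. In WT there was 1 ATACseq peak, 4087 bp upstream, with a fold of 3.82. In Uhrf1hepKO there was 1 ATACseq peak, 4914 bp downstream across an exon and an intron, with a fold of 4.24, and there were 2 H2A.Z peaks. Their summits held 22 reads (13.8 to 33.3) 3888 bp downstream and 19 reads (11.4 to 29.7) 4195 bp upstream. In WT no H2A.Z was called at most 5 kb from this TSS.

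The curated RefSeq start of Kdm6b lies 2519 bp upstream of the GENCODE TSS. Measured from there, WT had 3 H2A.Z peaks within 5 kb and Uhrf1hepKO had 2. One of them was shared, with 26 reads in WT (17.0 to 38.1) and 21 in Uhrf1hepKO (13.0 to 32.1), 3084 and 3081 bp upstream of that start. With RefSeq starts, H2A.Z was thus at all 10 genes in both livers. The share of all protein-coding genes by RefSeq starts is not given here. The absence of a WT H2A.Z peak at Kdm6b held for the GENCODE TSS only. For ATACseq, the WT peak lay 1568 bp upstream of the RefSeq start. Uhrf1hepKO had no ATACseq peak within 5 kb of that start.

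H2A.Z on both sides of an open stretch was counted beside the share of all protein-coding genes. In WT, 2 of the 10 (Ezh2 and Eed) carried H2A.Z at most 1 kb from each edge of an ATACseq peak near the TSS, beside 15.1% of all protein-coding genes. In Uhrf1hepKO there were 3 (Ezh2, Eed and Jarid2), beside 12.7%. Jarid2 had its H2A.Z summits at the same places in both livers, and the wider WT ATACseq peak covered the first of them. It was not counted at a q-value of at most 0.01. Within 500 bp of the edges, 1 of the 10 was left in WT and 2 in Uhrf1hepKO, beside 13.9% and 11.9% of all genes. Rbbp4, Kdm6a and Aebp2 had H2A.Z on the upstream side only, as did Kdm6b in Uhrf1hepKO. At Rbbp4 the summits on that side lay inside Zbtb8os.

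Most peaks of the 10 genes were in both livers. Of the 8 WT ATACseq peaks, 7 overlapped a Uhrf1hepKO peak, beside 61.3% of the whole WT list. With an overlap of 50% of both peaks, 3 of the 8 were left, beside 48.9% of the list. The WT peak was the wider one at 5 of these 7 places, beside 56.0% of all paired peaks. Of the 20 WT H2A.Z peaks, 18 overlapped a Uhrf1hepKO peak, beside 70.0% of the list. The 2 that did not were at Eed and Jarid2, and 4 of the 22 Uhrf1hepKO H2A.Z peaks had no WT counterpart, at Ezh2, Jarid2 and Kdm6b, beside 24.4% of the Uhrf1hepKO list.

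**Figure D5:**
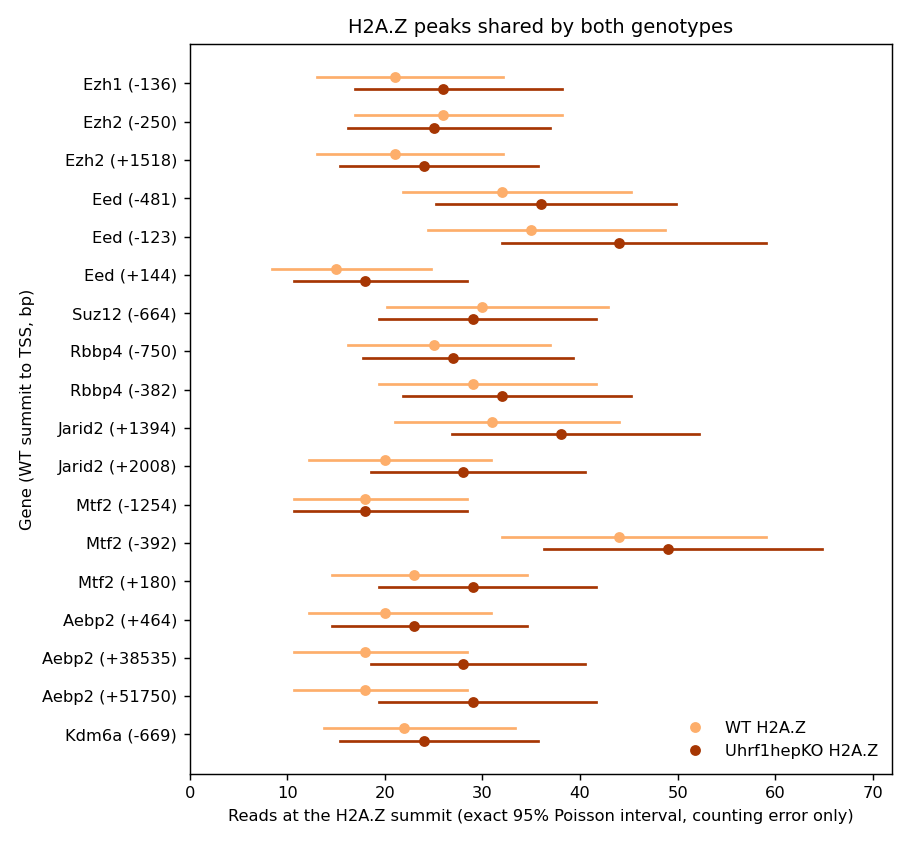
Reads at the summit (x axis) of the 18 H2A.Z peaks that were paired between WT and Uhrf1hepKO, with exact 95% Poisson intervals as lines, by gene and distance of the WT summit from the TSS (y axis). The WT and Uhrf1hepKO intervals overlap at all 18 places, and the share of all paired peaks where they do is not given.

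At these 18 H2A.Z places the summits in the 2 livers lay close together. The median shift was 12.0 bp, beside 16.0 bp over all paired peaks of the whole lists. The largest of the 18, 213 bp, was at Kdm6a. The Uhrf1hepKO summit held more reads at 15 of the 18 places, fewer at 2 and the same number at 1. Among the 30954 paired peaks of the whole lists, 59.3% had more reads in Uhrf1hepKO. The median ratio of Uhrf1hepKO to WT was 1.15 over the 18 places and 1.07 over all pairs. The background of the Uhrf1hepKO list was 3.30 reads per base and that of the WT list 3.10, a ratio of 1.06. At no single place of the 18 did the intervals separate the livers, with differences between 1 read fewer and 11 more in Uhrf1hepKO. The share of all paired peaks with overlapping intervals is not given here, so this cannot be read as particular to these genes. The shared peak near the RefSeq start of Kdm6b, over 5 kb from the GENCODE TSS, is not among the 18.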

How the data were processed

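The 10 genes, the other gene lists, the windows and the letters searched were chosen with earlier results of these data known. The authors aligned reads to GRCm38.p4 with BWA-MEM, used PICARD to clean them and ran MACS2 on each library, in broad mode for ATACseq. The ATACseq reads are described as single-end although the paired-end option was set in the calls, which bears on the widths and folds of those peaks. The caller's version, the peak mode for H2A.Z and a control are not given in the sources used here. Per the labels, FastQC 0.11.5 was used.

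Each deposited peak has a fold, the ratio of pileup to local background, and −log10 p- and q-values, which are means over the region in the ATACseq lists and values at the summit in the H2A.Z lists. The deposited score, a display value, and the deposited summit offset, another value, come from the same caller. No value was scaled between libraries.

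Peaks of chromosomes 1 to 19, X and Y were assigned to GENCODE vM21 genes when they overlapped by 1 bp the gene or 5 kb on either side of its TSS. Paired peaks overlapped 1 peak of the other list and no more. For H2A.Z, the whole number of reads and the background that give both the deposited fold and the Poisson p-value were solved, with a tolerance of 0.0005 on the −log10 scale. Depth is known only through the resulting background, 3.10 and 3.30 reads per base for H2A.Z, and 1.56 and 2.00 for the most frequent value of the WT and Uhrf1hepKO ATACseq lists. Reads are not given for single ATACseq peaks, whose values are means. Copies of peak sequences were found with BLAST 2.17.0. Intervals are exact Poisson, and no test was made with 1 library per condition. Overlaps and the solution for reads were tested on simulated data. All 10 genes were named. One gene of the marker list is not reported here. Of the other lists, genes with no peak and those with the highest fold were named. Python 3.11.15, pandas 2.3.3, scipy 1.17.1, pysam 0.24.0 and matplotlib 3.10.9 were used.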

Additional observations from a re-analysis of the deposited data

How the results depend on the processing

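Of 50 recounts under other settings, 43 stayed within 1.5 times the reported count. Within 500 bp of the TSS, 4 genes had an ATACseq peak in WT, 4 in Uhrf1hepKO and 4 in both, in place of 7. With the peaks under the median fold of each list left out, 4 had one in WT and 4 in both. With an overlap of 50% of both peaks, 3 WT ATACseq peaks of the 10 genes met a Uhrf1hepKO peak, in place of 7. With H2A.Z within 500 bp of each edge, 1 gene was flanked in WT, in place of 2. Counts from RefSeq starts and without peaks that have copies elsewhere were added after seeing the data. For these counts, and for those above the median fold, the shares of all genes are not given. From RefSeq starts, 10 genes had a WT H2A.Z peak and 6 a Uhrf1hepKO ATACseq peak, and without copied peaks 6 had a Uhrf1hepKO ATACseq peak, since that of Aebp2 was left out. No paired analysis was possible because each condition has 1 library. The lists hold called peaks only, so sites with less signal are missing, and none of the H2A.Z summits has under 11 reads, and ATACseq and H2A.Z peaks in other cells of the liver cannot be told apart from those in hepatocytes.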
